A study of Saccharomyces cerevisiae with 24 samples.

Results

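The genes described here belong to the phosphate (PHO) regulon of budding yeast, followed in cells that a pipetting robot had handled at 4 speeds. They were chosen by systematic name as a list of 10 genes: PHO84, PHO89, PHO5, PHO3, PHO8, PHO4, PHO81, SPL2, VTC1 and VTC3. Of these, 8 were among the 5193 genes quantified in each sample, and PHO5 and PHO3 were not analysed here. All 8 passed the filter on low counts, which kept 5142 genes.

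The 24 RNA samples came from wild-type W303 cells grown in YPD, a rich glucose medium, with no chemical treatment. Before collection, by the study's methods, the robot moved culture into tubes that held water in amounts set by the measured absorbance. The pipetting speed was 50, 130, 210 or 290 µL/s, and each speed had 6 samples, namely technical replicates 3, 2 and 1 of both biological replicates 2 and 1. According to the study's methods, the biological replicates were separate cultures of the same clone. A sample is written here as its speed followed by its replicates, so that 290 µL/s B2T3 stands for 290 µL/s, biological replicate 2, technical replicate 3. What a technical replicate number marks beyond the number itself is not given in the sources used here, and each culture stands for itself alone, so p-values measure only the spread between samples of these cultures.

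The study's methods give the strain as W303-1B, a MATa haploid with ura3, his3, leu2, can1, trp1 and ade2 mutations. The mating type markers in these samples went against that genotype. STE3, SAG1, MF(ALPHA)1 and MF(ALPHA)2, which MATalpha cells express, had at least 237.8 TPM (transcript abundance scaled for gene length and library) in every sample. None of the MATa-specific genes STE2, STE6, BAR1 and ASG7 exceeded 7.62 TPM. MFA1 and MFA2, which are also MATa-specific, were not analysed here. Each sample had between 11555784 and 15464458 counts in all (median 13123683). Counts of the 24 pairs of technical replicates with the same speed and culture differed by more than counting noise, by a chi-square of at least 9.16 per degree of freedom, and each was kept as a sample of its own.

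The PHO pathway lets yeast cells adjust to the phosphate in their medium. When phosphate is scarce, the cyclin-dependent kinase inhibitor Pho81 holds back the Pho80-Pho85 kinase, and the transcription factor Pho4 gathers in the nucleus and, together with Pho2, switches on transporters, phosphatases and polyphosphate synthesis. When phosphate is plentiful, Pho4 is phosphorylated and kept out of the nucleus, so its activity is set largely after transcription. PHO84 encodes the high-affinity proton-coupled phosphate transporter and PHO89 a sodium-coupled one that works best at alkaline pH. PHO8 encodes the vacuolar alkaline phosphatase, VTC1 and VTC3 encode subunits of the vacuolar complex that makes polyphosphate, and Spl2 acts on low-affinity phosphate uptake.

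Levels between genes were compared in TPM, which takes gene length into account. VTC1 was the most abundant of the 8, with 1704 ± 85.2 TPM (mean ± SD, n = 24 samples), and PHO84 followed with 1040 ± 71.4 TPM. Both stood above 97.2% or more of all 5193 genes in mean TPM. SPL2 had 421.2 ± 28.6 TPM, VTC3 had 317.4 ± 13.7 TPM and PHO8 had 201.2 ± 15.1 TPM. The regulators were lower, with 56.4 ± 2.68 TPM for PHO81 and 46.3 ± 5.43 TPM for PHO4. PHO89 was the least abundant at 5.27 ± 2.84 TPM, above 6.07% of all genes, from 48 to 313 counts per sample. So the 2 transporters lay near opposite ends of the range. The ranges of neighbours in this order did not overlap over the 24 samples, with 1 exception: PHO81 and PHO4 overlapped, although PHO81 was the higher in 23 of 24 samples.

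**Figure D1:**
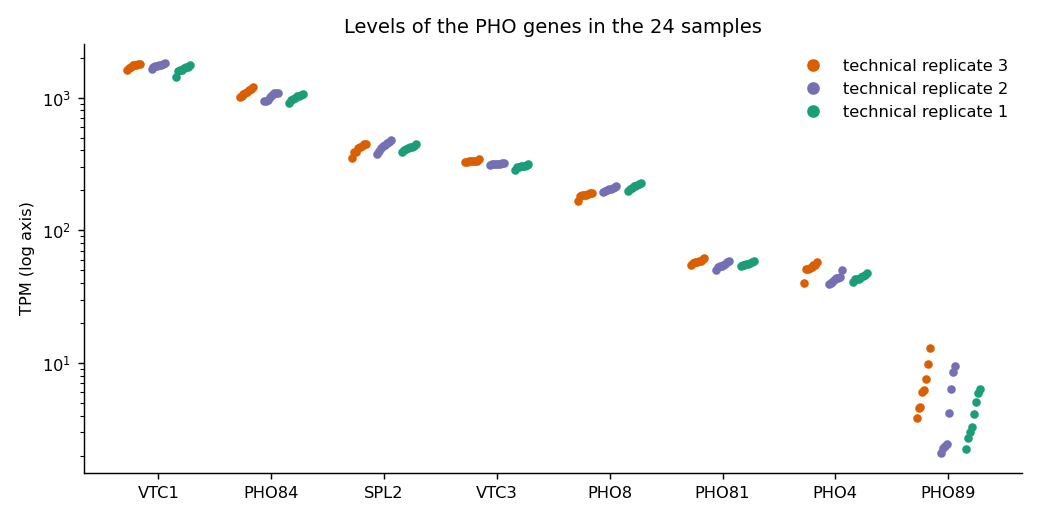
TPM of the 8 PHO genes (log axis) in the 24 samples, in order of mean level, with 1 point per sample and colours for technical replicates 3, 2 and 1. PHO89, at 5.27 TPM on average, spreads over the widest range, while VTC3 and PHO81 spread least.

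The genes also differed in how steady they were. Comparisons of 1 gene between samples were made in CPM, counts scaled to library size with TMM factors and not to gene length. The highest CPM of PHO89 was 6-fold its lowest, and the SD of its log2 CPM over the 24 samples was 0.721, larger than that of 99.8% of the 4850 genes averaging at least 5 CPM. PHO81 (SD 0.0504) and VTC3 (SD 0.0533) were near the other end, above 2.95% and 4.04% of those genes. The SD was 0.105 for PHO84, 0.127 for PHO8, 0.152 for PHO4, 0.111 for SPL2 and 0.0839 for VTC1, against a median of 0.112 over the 4850 genes. PHO89 also had the lowest counts of the 8, and how far counting error contributed to its spread was not tested. Of the variance of PHO89, 74.3% lay between the 6 combinations of biological and technical replicate, and the share was 75.5% for PHO84 and 86.4% for PHO8, against a median of 59.8% over all genes compared. It was 74.6% for VTC3, 67.7% for VTC1, 59.1% for SPL2, 50.6% for PHO4 and 49.3% for PHO81.

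The pattern of PHO89 is best seen sample by sample, with its CPM given in order of rising speed. In technical replicate 2, biological replicate 2 had 16.5, 15.3, 11.3 and 7.7 CPM, against 4.7, 4.4, 3.8 and 4.2 CPM in biological replicate 1. All 4 samples of biological replicate 2 were above all 4 of biological replicate 1. In technical replicate 1 the order was turned round: biological replicate 2 had 5.5, 5.0, 4.0 and 5.9 CPM, and biological replicate 1 had 9.3, 7.4, 10.8 and 11.2 CPM, again with no overlap. In technical replicate 3, biological replicate 2 had 13.4, 11.4, 6.8 and 8.3 CPM and biological replicate 1 had 22.9, 10.7, 17.1 and 8.0 CPM, and these overlapped.

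PHO84 varied far less in proportion, and in technical replicate 2 it differed the other way. There it had 1718.4, 1718.1, 1717.6 and 1868.3 CPM in biological replicate 2, in order of rising speed, against 2135.3, 2027.8, 1959.8 and 2028.5 CPM in biological replicate 1, with no overlap. In technical replicate 3 it had 2167.1, 2149.5, 2081.5 and 1975.8 CPM in biological replicate 2, against 1984.1, 1897.0, 1818.2 and 1798.5 CPM in biological replicate 1. At every speed the sample of biological replicate 2 was the higher one in technical replicate 3, but the lowest of them was below the highest of biological replicate 1. In technical replicate 1, PHO84 had 1998.4, 1926.1, 1917.4 and 1829.2 CPM in biological replicate 2. Biological replicate 1 had 1721.3, 1778.4, 1851.8 and 1894.8 CPM there. Such a lack of overlap was not particular to the 2 transporters. The cultures also did not overlap for SPL2 and VTC1 within technical replicates 3 and 1, and for PHO4 within technical replicate 1. How many of all genes showed this was not counted.

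**Figure D2:**
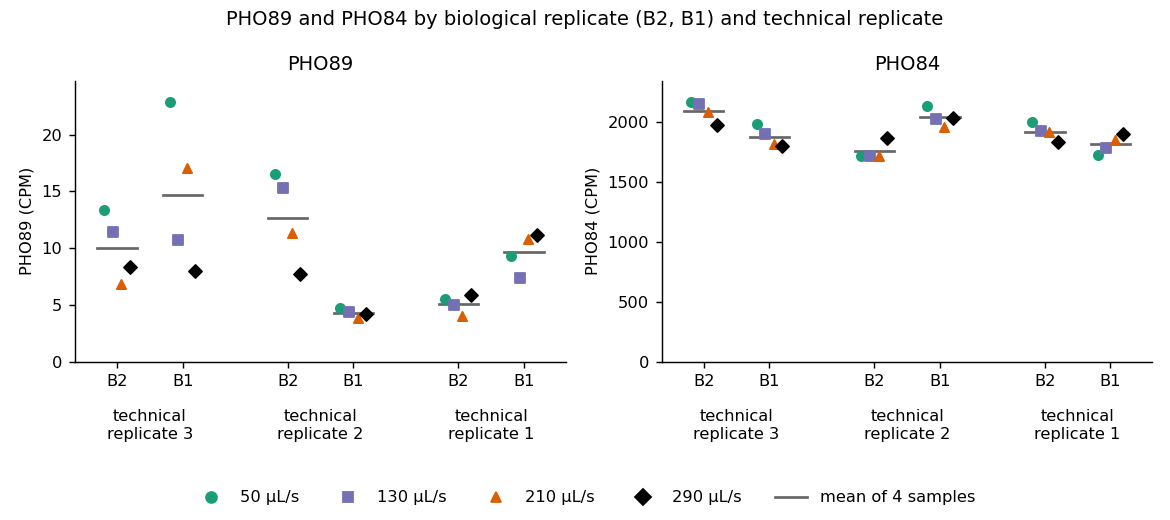
CPM of PHO89 (left) and PHO84 (right) in each of the 24 samples, grouped by technical replicate and, within it, by biological replicate 2 (B2) and 1 (B1), with bars at the mean of 4 samples and colours for speed. In technical replicate 2, PHO89 is at 7.7 to 16.5 CPM in B2 and 3.8 to 4.7 CPM in B1, while PHO84 is at 1717.6 to 1868.3 CPM in B2 and 1959.8 to 2135.3 CPM in B1.

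Whether the cultures differed alike in every technical replicate was tested as the interaction of biological with technical replicate, in a model that also held speed. A gene was called at a false discovery rate (FDR, the p-value adjusted over all 5142 genes) below 0.01. PHO89 (FDR 0.0001) and PHO84 (FDR 0.00036) were called, that is 2 of the 8 genes, against 326 of all 5142 genes (6.34%). Within technical replicate 2, PHO89 was higher in biological replicate 2 by 1.57 on the log2 scale (SE 0.27, 95% interval 1.02 to 2.12, FDR 0.000273), and PHO84 was lower, with a log2 fold change of -0.21 (SE 0.04, interval -0.30 to -0.13, FDR 0.00135). These were the 2 of 8 called in that contrast, against 424 of all genes (8.25%). PHO84 was no longer called when 50 µL/s B2T2 was left out (log2 fold change -0.19, FDR 0.0113).

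Within technical replicate 1, PHO89 had a log2 fold change of -0.95 between biological replicates 2 and 1 (SE 0.27, interval -1.51 to -0.39) that was not called (FDR 0.238), and PHO84 had 0.08 (FDR 0.619). VTC1 had the lowest FDR of the 8 there, with a log2 fold change of 0.16 (SE 0.04, interval 0.08 to 0.24, FDR 0.123). It was higher in biological replicate 2 in 4 of 4 pairs matched for speed, with no overlap. None of the 8 was called by edgeR there, against 1 of all genes (0.0194%). An unadjusted p below 0.05 was found for 3 of the 8 and 420 of all genes. Within technical replicate 3, PHO89 had -0.54 (SE 0.22, interval -0.98 to -0.09, FDR 0.141). PHO84 had 0.16 (SE 0.04, interval 0.07 to 0.25, FDR 0.0207) and SPL2 had 0.20 (SE 0.05, FDR 0.0164). Here too 0 of 8 were called, against 219 of all genes (4.26%). At an unadjusted p below 0.05 there were 5 of the 8 and 1145 of all 5142 genes. DESeq2 called PHO84 (FDR 0.00536) and SPL2 (FDR 0.00741). Without 50 µL/s B1T1, edgeR also called PHO84 (FDR 0.00843), and without 50 µL/s B1T2 it called SPL2 (FDR 0.0034).

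The difference between the cultures was itself compared between technical replicates. For PHO89, biological replicate 2 minus 1 was greater in technical replicate 2 than in 1 by 2.52 on the log2 scale (SE 0.38, interval 1.73 to 3.31, FDR 0.000118), and technical replicate 3 less 2 gave -2.11 (SE 0.34, FDR 0.000227). For PHO84 the same 2 contrasts were -0.30 (SE 0.06, interval -0.42 to -0.17, FDR 0.00282) and 0.37 (SE 0.06, FDR 0.000195). The 2 transporter genes thus had opposite signs in both contrasts, but both hold the same difference in technical replicate 2, so they are not separate results. Technical replicate 3 less 1 was called for neither gene, at 0.41 for PHO89 (interval -0.32 to 1.14) and 0.08 for PHO84 (interval -0.05 to 0.20). VTC1, the small subunit of the polyphosphate complex, had -0.19 for technical replicate 2 less 1 (SE 0.05, FDR 0.0298), which did not pass the threshold.

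**Figure D3:**
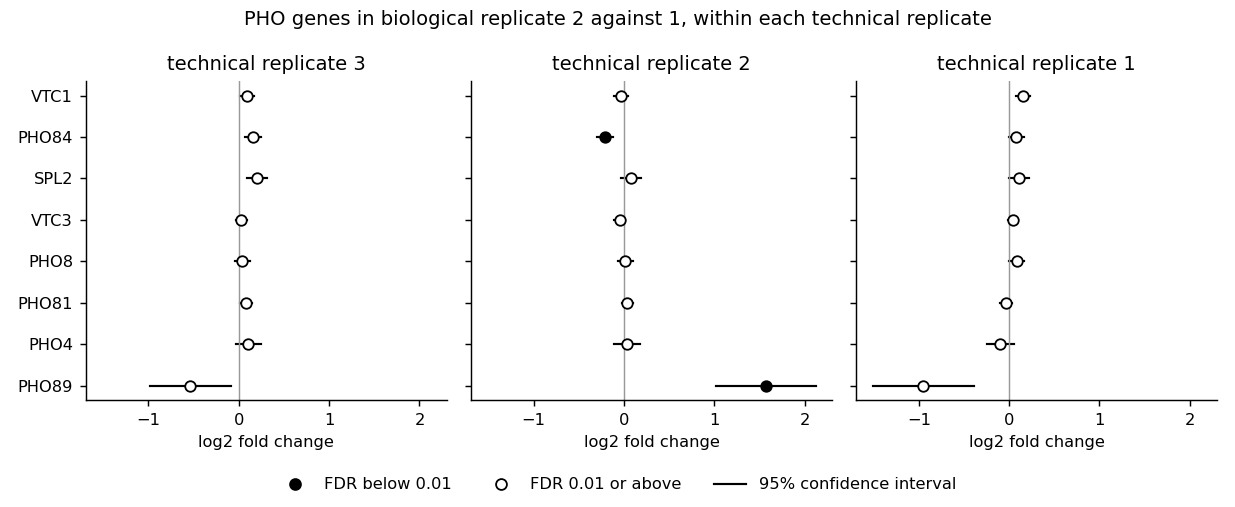
Log2 fold change of biological replicate 2 over 1 for the 8 PHO genes within technical replicates 3, 2 and 1, with 95% confidence intervals and filled points for FDR below 0.01. In technical replicate 2, PHO89 is at 1.57 and PHO84 at -0.21, and no other point is filled.

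Averaged over the technical replicates, in the model of speed and biological replicate that the study used, 0 of the 8 genes were called by edgeR between biological replicates 2 and 1, against 0 of all genes (0%). At an unadjusted p below 0.05 there were 2 of the 8 and 540 of all genes, and DESeq2 and limma-voom called none of the 8. The lowest FDR was that of SPL2. It had 129.9, 132.9 and 146.8 CPM in biological replicate 2 and 105.8, 122.4 and 148.9 CPM in biological replicate 1 (lowest, median and highest, n = 12 each), so the groups overlapped. In 11 of 12 pairs matched for speed and technical replicate, biological replicate 2 was the higher (log2 fold change 0.13, SE 0.04, interval 0.05 to 0.21, FDR 0.185). For PHO89, whose cultures differed in opposite directions, the average was -0.05 (interval -0.64 to 0.55), and for PHO84 it was 0.01 (interval -0.08 to 0.11).

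Between technical replicates, PHO8 was lower and PHO4 higher in technical replicate 3 than in 2 and 1, and VTC3 was higher in 3 than in 1. The test of any difference among the 3 technical replicates called these 3 of the 8 genes, a smaller share than the 2478 of all 5142 genes (48.2%). Technical replicate 3 against 1 called the same 3 genes, against 2536 of all genes (49.3%), and technical replicate 3 against 2 called PHO8 and PHO4, against 1982 of all genes (38.5%). In technical replicate 2 against 1, 0 of the 8 were called by edgeR, against 221 of all genes (4.3%), and none by DESeq2 or limma-voom. At an unadjusted p below 0.05 there were 2 of the 8 and 1316 of all genes. The median log2 fold change of the 8 genes in technical replicate 3 against 1 was 0.07, and that of all genes was 0.01. In bulk RNA, fewer cells expressing a gene and less of its RNA per cell cannot be told apart.

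PHO8 was the one of the 8 whose groups separated, and how many of all genes separated in this way was not counted. It had 289.4, 321.9 and 328.7 CPM in technical replicate 3 (lowest, median and highest, n = 8), against 351.7, 367.8 and 376.8 CPM in technical replicate 2 and 354.4, 387.5 and 404.5 CPM in technical replicate 1. Every sample of technical replicate 3 was below every sample of the other technical replicates. The log2 fold change was -0.26 against technical replicate 1 (SE 0.03, interval -0.32 to -0.20, FDR 6.96e-08) and -0.21 against technical replicate 2 (SE 0.03, FDR 3.88e-06). Each of the 24 fits with 1 sample left out also called the difference from technical replicate 1, with an FDR of at most 3.71e-07.

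PHO4, the transcription factor itself, had 33.8, 44.9 and 49.8 CPM in technical replicate 3, against 35.2, 37.8 and 43.2 CPM in technical replicate 2 and 36.6, 39.0 and 43.0 CPM in technical replicate 1. The groups overlapped through 1 sample, 290 µL/s B1T3, which had the lowest PHO4 of all 24 samples. The other 7 samples of technical replicate 3 were above all of technical replicate 1. PHO4 rose in technical replicate 3 by 0.19 against 1 (SE 0.05, interval 0.08 to 0.30, FDR 0.00431) and by 0.22 against 2 (SE 0.05, FDR 0.00136). The call against technical replicate 1 was lost when any of 7 samples was left out, with an FDR of 0.0122 without 210 µL/s B2T1, 0.012 without 130 µL/s B2T1, 0.0119 without 50 µL/s B2T1, 0.0164 without 50 µL/s B1T3, 0.0164 without 290 µL/s B2T3, 0.0128 without 210 µL/s B2T3 and 0.016 without 130 µL/s B2T3.

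VTC3 changed less but steadily. It had 860.0, 881.7 and 912.6 CPM in technical replicate 3, 846.9, 867.0 and 910.1 CPM in technical replicate 2 and 783.4, 828.5 and 862.5 CPM in technical replicate 1. Technical replicate 3 was higher than 1 in 8 of 8 pairs matched for speed and culture, although the groups overlapped, and higher than 2 in 5 of 8. Against technical replicate 2 its log2 fold change was 0.03 (interval -0.02 to 0.07, FDR 0.353). The log2 fold change of technical replicate 3 against 1 was 0.10 (SE 0.02, interval 0.05 to 0.14, FDR 0.000808), and that of 2 against 1 was 0.07 (FDR 0.0467) and did not pass the threshold. VTC1 had 0.05 in technical replicate 3 against 1 (FDR 0.222) and 0.10 in 2 against 1 (FDR 0.0598).

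The other genes were not called between technical replicates. PHO89 had 6.76, 11.01 and 22.9 CPM in technical replicate 3, 3.82, 6.16 and 16.5 CPM in 2 and 4.04, 6.69 and 11.2 CPM in 1. Its log2 fold change was 0.69 for technical replicate 3 against 1 (SE 0.31, interval 0.04 to 1.33, FDR 0.0621), the largest of the 8 but with the widest interval. PHO84 had 0.09 (interval -0.02 to 0.20, FDR 0.143), PHO81 had 0.03 (interval -0.03 to 0.08, FDR 0.389) and SPL2 had -0.06 (interval -0.14 to 0.02, FDR 0.225). In technical replicate 3 against 2, SPL2 had -0.11 (interval -0.19 to -0.03, FDR 0.0222). There it was lower in 8 of 8 matched pairs, with overlapping groups.

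**Figure D4:**
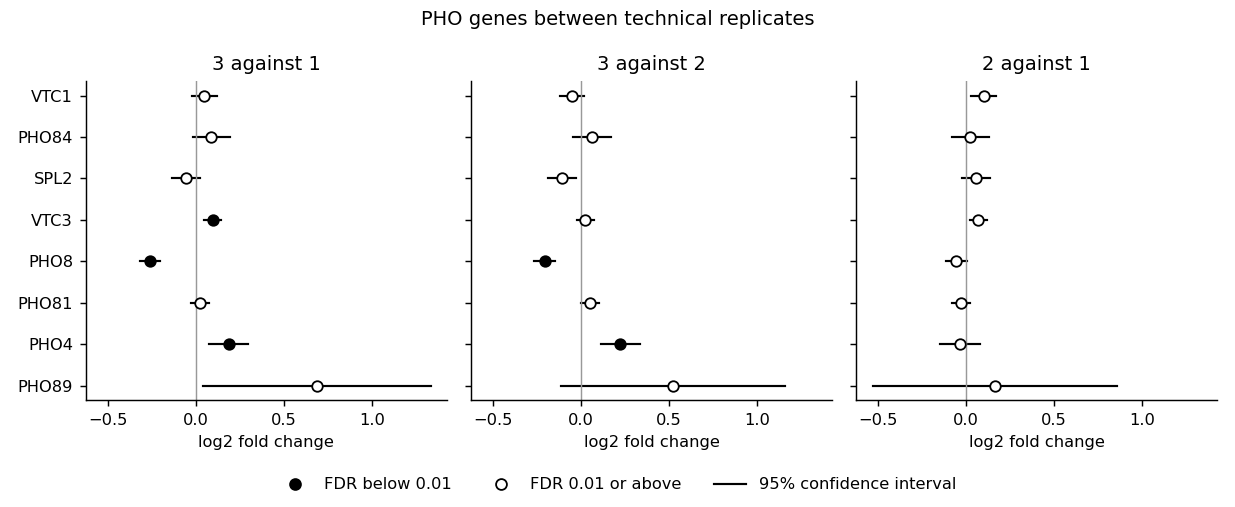
Log2 fold changes of the 8 PHO genes between technical replicates 3 and 1, 3 and 2, and 2 and 1, with 95% confidence intervals and filled points for FDR below 0.01. PHO8 is at -0.26 and -0.21 in the 2 contrasts with technical replicate 3, and no point is filled for 2 against 1.

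Other genes of phosphate metabolism moved in both directions in technical replicate 3 against 1, where 49.3% of all genes were called (1346 higher and 1190 lower). Of 6 other genes of phosphate transport and its trafficking, 4 rose and none fell, with a median log2 fold change of 0.19. PHO90, a low-affinity phosphate transporter, rose by 0.46 (SE 0.07, FDR 9.47e-06), PHO88, an endoplasmic reticulum membrane protein, by 0.26 (SE 0.03) and GIT1, the glycerophosphoinositol permease, by 0.23 (SE 0.04). Of 4 other phosphatase genes tested, 2 fell: PHM8, a nucleotide and lysophosphatidate phosphatase, with -0.57 (SE 0.06, FDR 4.06e-08), and GDE1, a glycerophosphocholine phosphodiesterase, with -0.14 (SE 0.03). Of 8 other regulators tested, DDP1, an inositol pyrophosphate phosphatase, and PLC1, phospholipase C, fell (-0.25, SE 0.04, and -0.16, SE 0.03). Of 8 other polyphosphate genes, VTC4, the polymerase of the complex, rose by 0.08 (SE 0.03), while PPN1 and PPN2, which degrade polyphosphate, fell (-0.32, SE 0.03, and -0.27, SE 0.04).

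Between the cultures within technical replicate 2, where PHO89 and PHO84 differed, 4 of the 26 of these genes tested were called, against 8.25% of all genes. GIT1 was higher in biological replicate 2 by 0.26 (SE 0.05, FDR 0.00152), KCS1, an inositol hexakisphosphate kinase, by 0.12 (SE 0.03, FDR 0.00544) and PHM7 by 0.33 (SE 0.08, FDR 0.00861), and PHM8 was lower at -0.37 (SE 0.07, FDR 0.000529). GIT1 was also higher in biological replicate 2 within technical replicate 1 (0.36, SE 0.05, FDR 0.00472). It was the 1 gene of all 5142 called there (0.0194%). Within technical replicate 3, 4.26% of all genes were called, and of the 26 genes PHO13 and VTC4 were. PHO13, a phosphatase of small metabolites, was higher by 0.16 (SE 0.04, FDR 0.00527) and VTC4 by 0.13 (SE 0.03, FDR 0.00424).

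The study asked whether pipetting speed changes gene expression, and none of the 8 PHO genes was called at any speed in the study's model of speed and biological replicate. At 130 and 210 µL/s against 50 µL/s, edgeR called 0 of 8, against 0 of all genes (0%) in each, and at 290 µL/s it called 0 of 8 against 2 of all genes (0.0389%). The joint test of all speeds called 0 of 8 and 0 of all genes (0%). None of the 8 had an unadjusted p below 0.05 in these tests, against 88, 158, 547 and 178 of all genes in the order given. DESeq2 and limma-voom called none of the 8. At 290 against 50 µL/s, the 95% intervals of 6 genes lay between -0.18 and 0.17 on the log2 scale: PHO84 (-0.04, interval -0.18 to 0.09), PHO8 (0.02, interval -0.14 to 0.17), PHO81 (0.06, interval -0.01 to 0.12), SPL2 (-0.03, interval -0.14 to 0.07), VTC1 (-0.03, interval -0.13 to 0.07) and VTC3 (-0.01, interval -0.09 to 0.06).

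PHO89 and PHO4 had the largest values. In order of rising speed, PHO89 had medians of 11.3 CPM (range 4.67 to 22.9), 9.05 CPM (4.36 to 15.3), 8.76 CPM (3.82 to 17.1) and 7.83 CPM (4.23 to 11.2), with n = 6 each, and the speeds overlapped. Its log2 fold change at 290 against 50 µL/s was -0.67 (SE 0.40, interval -1.51 to 0.16, FDR 0.546), and 290 µL/s was the lower in 4 of 6 pairs matched for culture and technical replicate. PHO89 was lower at 130 than at 50 µL/s in 6 of 6 such pairs (log2 fold change -0.42, interval -1.24 to 0.40, FDR 1). In the same order, PHO4 had medians of 42.2 CPM (range 37.5 to 49.8), 39.0 CPM (36.6 to 48.5), 41.5 CPM (38.0 to 47.7) and 36.9 CPM (33.8 to 44.6). Its log2 fold change at 290 against 50 µL/s was -0.17 (SE 0.09, interval -0.34 to 0.01, FDR 0.488), with 290 µL/s the lower in 5 of 6 pairs.

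**Figure D5:**
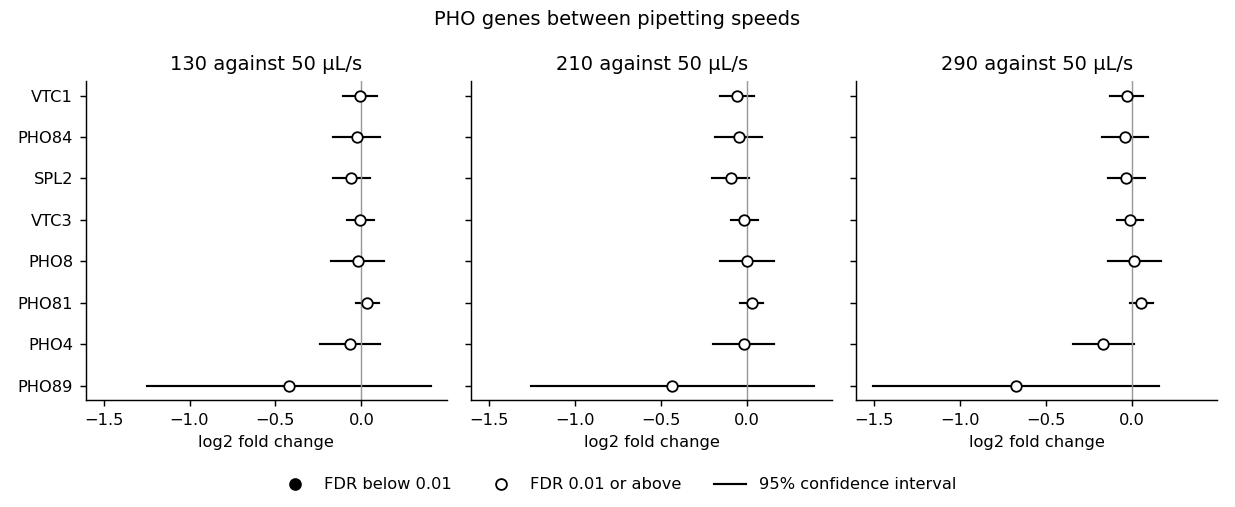
Log2 fold changes of the 8 PHO genes at 130, 210 and 290 µL/s against 50 µL/s, with 95% confidence intervals. No point is filled, since no FDR is below 0.01, and PHO89 has the widest interval, from -1.51 to 0.16 at 290 µL/s.

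Since samples with the same technical replicate number in a culture varied together across speeds, the speeds were also compared with technical replicate as a block. With a term for technical replicate, 202 of all genes (3.93%) were called at 290 against 50 µL/s, and with a block for each combination of culture and technical replicate, 334 genes (6.5%). The PHO genes called were 0 of 8 in both. In the second of these fits PHO89 had -0.64 (SE 0.20, interval -1.05 to -0.24, FDR 0.0277) and PHO4 had -0.17 (SE 0.06, interval -0.29 to -0.05, FDR 0.0489). Both came below an FDR of 0.05 without passing the threshold of 0.01. At an unadjusted p below 0.05 there were 3 of the 8 and 1707 of all genes. PHO89 had -0.41 at 130 µL/s (interval -0.81 to -0.02, FDR 0.784) and -0.42 at 210 µL/s (interval -0.82 to -0.03, FDR 0.361) in this fit. Of the 26 other phosphate genes tested, GDE1, PPN1, VTC2, PHO88 and VTC5 were called at 290 against 50 µL/s in that fit. The share of all genes was the 6.5% given above. GDE1 (0.22, SE 0.03), PPN1 (0.19, SE 0.03) and VTC2 (0.09, SE 0.02), a regulatory subunit of the polyphosphate complex, were higher. PHO88 (-0.13, SE 0.03) and VTC5 (-0.12, SE 0.03), another subunit, were lower. Whether the speeds acted differently in the technical replicates or in the cultures was tested as interactions, which called 0 of 8 PHO genes, against 0 of all genes (0%) in each, with none of the 8 but 136 and 58 of all genes at an unadjusted p below 0.05.

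The genes whose log2 CPM followed each PHO gene most closely over the 24 samples were listed, among the 4703 genes with a mean of at least 10 CPM. The points share cultures and technical replicates, so these correlations are a description. PHO89 was most like NCE103, the carbonic anhydrase gene (Pearson r 0.929, Spearman rho 0.905), followed by ALD6, an acetaldehyde dehydrogenase (r 0.876), and HXT2, a glucose transporter of a family with similar sequences (r 0.876). With the means of the technical replicates removed, r was 0.92 for PHO89 with NCE103. PHO84 was most like VRG4, the Golgi GDP-mannose transporter (r 0.869), EXG1, an exo-glucanase of the cell wall (r 0.817), and YHM2, a mitochondrial citrate carrier (r 0.796).

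PHO8 was most like the enolase ENO1 (r 0.95), ARC35 (r 0.946) and CAP2 (r 0.946), genes of the Arp2/3 complex and of actin capping, and PHO4 was most like NRD1 (r 0.826), SWI1 (r 0.804) and GAT1 (r 0.799), which act in transcription termination, chromatin remodelling and nitrogen regulation. PHO81 followed AVT4 (r 0.779), CHA1 (r 0.731) and YOR1 (r 0.696), and SPL2 followed BNA1 (r 0.789) and PAR32 (r 0.779). VTC1 followed SPT4 (r 0.751), DIB1 (r 0.748) and TOA2 (r 0.745), and VTC3 followed SEC53 (r 0.864), HAM1 (r 0.862) and DUT1 (r 0.857). With the means of the technical replicates removed, r was lower for PHO8 with ENO1 (0.715), PHO4 with NRD1 (0.689) and VTC3 with SEC53 (0.649), and by rank SPL2 with BNA1 had a rho of 0.61. No PHO gene was among the 3 genes most like another. Among the 8 genes themselves, PHO84 with VTC3 (r 0.706), VTC1 with VTC3 (r 0.701) and PHO84 with VTC1 (r 0.64) were the closest pairs. PHO84 with PHO89 had r -0.319, PHO4 with PHO8 had -0.591 and PHO8 with VTC3 had -0.616, the lowest of the 28 pairs.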

How the data were processed

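The authors trimmed reads with fastp 0.23.2, aligned them to the W303 genome with STAR 2.7.10a and quantified genes with RSEM. The values deposited by the authors are RSEM's estimated counts (expected counts) per gene, not normalized, of which 23.8% are not whole, and TPM, normalized by the authors with RSEM for length and library. Deposited lengths are coding lengths (100% are multiples of 3). A deposited table of the whole series was not used. Gene names came from an R64 annotation, by systematic name, for 5151 of 5193 genes.

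Counts were rounded, and 51 genes with an average of 1 or less were left out. Models were fitted to all 24 samples with edgeR 4.0.16 in R 4.3.3 (TMM, glmQLFit, glmQLFTest, two-sided) with terms for speed and biological replicate, as in the study, adding technical replicate or interactions where named. FDR was adjusted over all 5142 genes by Benjamini-Hochberg, with a threshold of 0.01. SEs are the absolute log2 fold change divided by the square root of F, and intervals are at 95%. Log2 CPM used a prior count of 2. The code was tested on simulated data.

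All deviations of samples with the same technical replicate number and culture from their group means correlated above 0.1 (36 of 36 pairs, r 0.291 to 0.812), so the numbers pair samples within a culture. Across cultures 31 of 48 pairs did.

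Alternatives were DESeq2 1.42.0 and its size factors, limma 3.58.1 with voom, no TMM, other filters and thresholds, counts not rounded, blocks and other terms, and each sample left out. The legacy fit and the block for each combination of culture and technical replicate were added after seeing the data. The genes, lists and tests were chosen with earlier results of these data known. Named are all 8 genes, of other lists those called (the 3 largest by log2 fold change where more), and the 3 genes most like each by Pearson r, of which 1 is not reported here.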

Additional observations from a re-analysis of the deposited data

Results flagged for a closer look

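The difference between biological replicates 2 and 1 was not the same in every technical replicate for PHO89 and PHO84, by the test of the interaction. It was greater in technical replicate 2 than in 1 by 2.52 (log2) for PHO89, and for PHO84 the same contrast was -0.30.

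Of 104 groups of 4 to 8 samples tested for a sample far from the others, 4 had one, where chance at 1 in 20 would give 5.2. PHO84 had 1868 CPM in 290 µL/s B2T2, above the other 3 samples of its culture and technical replicate, of which the nearest had 1718 CPM. PHO8 had 289.4 CPM in 50 µL/s B1T3, below the next of technical replicate 3 at 316.6 CPM. PHO4 had 33.82 CPM in 290 µL/s B1T3, below the next of technical replicate 3 at 43.72 CPM, and 43.01 CPM in 50 µL/s B1T1, above the next of its culture and technical replicate at 39.86 CPM.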

How the results depend on the processing

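The counts of PHO genes called kept within 1.5 times their main value under all alternatives run, with these exceptions. At an FDR threshold of 0.05, 1 gene (VTC3) was called in technical replicate 2 against 1, and 2 genes were called between cultures within technical replicate 3, as with DESeq2 (2), where the main count was 0. With 1 sample left out, the count was 1 to 2 between cultures within technical replicate 2 and 0 to 1 within technical replicate 3. With the technical replicate number as a replicate block, alone or within each culture, 0 of 8 genes were called between speeds. With it alone, 0 of 8 were called between cultures, against 19 of all genes (0.37%), and SPL2 had 0.13 (FDR 0.0256). At a threshold of 0.05, PHO89 (FDR 0.0277) and PHO4 (FDR 0.0489) passed at 290 against 50 µL/s with the block within each culture.

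Signs were followed at 290 against 50 µL/s, in technical replicate 3 against 1 and between cultures, averaged and within each technical replicate. In these comparisons they turned only for differences that were not called. With 1 sample left out, log2 fold changes at 290 against 50 µL/s ranged from -0.036 to 0.060 for PHO8, -0.082 to 0.020 for SPL2, -0.068 to 0.0072 for VTC1 and -0.039 to 0.0052 for VTC3. Between biological replicates 2 and 1 they ranged from -0.010 to 0.045 for PHO4, -0.0091 to 0.027 for PHO84, -0.158 to 0.125 for PHO89 (0.040 with limma-voom) and -0.0047 to 0.017 for VTC3. Within technical replicate 2 they ranged from -0.014 to 0.077 for PHO4 and -0.0010 to 0.031 for PHO8, and within technical replicate 3 from -0.0050 to 0.059 for PHO8. The causes were not tested.

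PHO89 had the lowest counts of the 8 genes (48 to 313 per sample) and the widest intervals between speeds. Its SE at 290 against 50 µL/s was 0.40, and 0.20 with the block for each combination of culture and technical replicate, and the part of counting error was not tested. With 2 cultures, a culture and whatever else went with it cannot be told apart. Summing PHO5 with PHO3 and the search for promoter motifs were not run.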

Other observations

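PHO89 also responds to calcineurin and alkaline pH, and PHO3 belongs to the thiamine-regulated genes, so lists of both kinds were counted. Of 15 calcineurin and alkaline pH response genes tested, 2 rose and 3 fell in technical replicate 3 against 1, with a median log2 fold change of -0.01, where 49.3% of all genes were called. PMC1, the vacuolar calcium pump, had -0.27 (SE 0.03), CMK2, a calmodulin-dependent kinase, had -0.24 (SE 0.05) and NRG2, a transcriptional repressor, had 0.27 (SE 0.08). Between the cultures within technical replicate 2, where PHO89 had 1.57, 0 of these 15 were called by edgeR, against 8.25% of all genes. At an unadjusted p below 0.05 there were 6 of the 15 and 1665 of all 5142 genes.

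Of 15 thiamine-responsive genes tested, 1 rose and 4 fell in technical replicate 3 against 1, with a median of -0.06, against the same 49.3% of all genes called. THI74 had -0.28 (SE 0.06), THI20, a kinase of thiamine synthesis with the similar genes THI21 and THI22, which could share its reads, had -0.26 (SE 0.04) and THI80, thiamine pyrophosphokinase, had 0.26 (SE 0.06). Within technical replicate 2, 3 of the 15 were lower in biological replicate 2 and none higher, against 8.25% of all genes called.

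Of the mating type markers tested, 3 of 4 MATalpha-specific genes rose and 2 of 4 MATa-specific genes fell in technical replicate 3 against 1. There 49.3% of all genes were called.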
